A study of Mus musculus with 25 samples.

Results

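The arrays described here compared thymic invariant natural killer T (iNKT) cells that lack NK1.1 between mice without the kinase Mst1 and wild-type (WT) mice. All arrays that the labels place in the genotype and stage groups Mst1KO_S1_S2 (4 arrays) and WT_S1_S2 (6 arrays) were taken, 10 of the 25 arrays in all. Mice of every group were C57BL/6. Thymocytes were first enriched with a CD8 microbead kit, per the labels' protocols, and then sorted as TCRb+ cells that bound the PBS57-loaded CD1d tetramer and lacked CD24. Among them S1 cells were CD44-NK1.1-, S2 cells CD44+NK1.1- and S3 cells CD44+NK1.1+. The label S1_S2 names the first pair of stages together and does not say in what proportion they were mixed. Also used for comparison were the S3 groups (7 WT and 5 Mst1KO arrays) and 2 arrays of S1_S2 cells from mice that the labels call dKOMst. The labels give neither the construct behind the Mst1KO mice nor the cells in which the gene was lost, and no age. Nor do they tie each array to an animal of its own, so p-values here reflect the scatter of these arrays, and that scatter may be technical.

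Mst1, encoded by Stk4, is the mammalian counterpart of the Drosophila kinase Hippo. In the canonical pathway it acts with Salvador to activate the Lats kinases, which keep the co-activators Yap and Taz out of the nucleus, and in lymphocytes it is also known for its part in adhesion, migration and survival. The iNKT cells recognise lipids on CD1d, are selected by double-positive thymocytes, and pass from CD44-negative cells through dividing CD44-positive cells to quiescent cells with NK1.1. The NK1.1-negative pool holds precursors as well as interleukin-4-producing NKT2 cells and interleukin-17-producing NKT17 cells. In sorted bulk cells, fewer cells of a type and less RNA per cell cannot be told apart.

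Levels are log2 RMA values of Clariom S transcript clusters, so a difference of 1 is a doubling. Array medians lay between 7.28 and 7.39 over all 25 arrays, and median negative controls between 6.2 and 6.55 on the 10 arrays, a level taken here as background. The number of arrays limits the precision. By the numbers in their titles the arrays form a lower run, here the first, with all Mst1KO arrays and WT replicates 1 to 3, and a higher one, the second, with WT replicates 4 to 6. The run was a term in the model, and the first-run arrays alone are given as a check. Replicates correlated across clusters at r of 0.982 to 0.992 in WT and 0.991 to 0.993 in Mst1KO, against 0.985 to 0.99 between the groups. WT replicate 3 stood apart, with a mean r of 0.9837 to its group (0.9864 to 0.9889 for the other 5) and a mean level of the NK receptor genes of 7.02, against 6.08 to 6.58. Mst1KO replicates 3 and 4 lacked Y-linked signal (means of 3 genes of 4.81 and 4.84), and the other 8 arrays had it (7.19 to 8.02). Results without those arrays, and with a sex term in the model, are given with the counts.

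Stk4 was lower on each Mst1KO array. It read 10.18 to 10.74 (median 10.46) on the WT arrays and 9.4, 9.31, 9.22 and 9.31 on Mst1KO replicates 1 to 4, so the groups did not overlap. The log2 difference was -0.92 ± 0.16 (SE; limma adjusted p = 0.0059), and -1.0 within the first run (adjusted p = 0.016). With Y-signal arrays alone, which leaves 2 Mst1KO arrays, the adjusted p was 0.15. Where the probes lie with respect to the deletion is unknown here, and probes beyond the deletion would check nothing. Among the 200 measured genes nearest to Stk4 on chromosome 2, 1 was called (0.5%, against 0.569% of all mapped genes). Genes of the sorted cells were high in both groups. Zbtb16, the lineage-defining transcription factor, had means of 12.51 ± 0.07 (SD, n = 6) and 12.49 ± 0.03 (n = 4), and Cd3e of 12.27 and 12.13. Cd24a lay below background in both (4.83 and 4.92). Cd44, which separates S1 from S2, differed by 0.25 ± 0.11 (adjusted p = 0.5), and the NK1.1 gene Klrb1c by -0.26 (adjusted p = 0.83).

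Few genes were called as changed with loss of Mst1 in these cells, and more of those called rose than fell. Of 22206 transcript clusters, 116 (0.522%) were called, which here means a limma adjusted p below 0.05. Of these 73 rose (0.329%) and 43 fell (0.194%), 20 and 16 of them at least 2-fold. The first-run arrays alone gave 64 calls (0.288%), 58 of them shared, and the sign there was the same for all 116. In 93 of the 116 the arrays of the groups did not overlap, as in 2.58% of all clusters (57 rises, against 1.5%, and 36 falls, against 1.08%). A symbol that could be named belonged to 109 of them. Of these, 48 kept their call with each of the 10 arrays left out in turn, and the text below rests mainly on those. Single arrays moved the count: it was 174 without WT replicate 3 (97 of them shared), 68 and 77 without WT replicates 1 or 2, and 67, 66, 75 and 71 without Mst1KO replicates 1 to 4. A lost call is given below where a single array, the first-run arrays of 4 groups or the run term decided it. With only the 7 first-run S1_S2 arrays 27 of the 109 stayed called, and those lost there include Fosb, Klf6, Csf1, Il4, Ptprb, Cdh3 and Akr1c18, with the adjusted p given beside each. With a sex term in the model 60 of the 109 stayed called, and of the genes named below Kcnc1, Lingo4, Nr1d1, Rhob, Ldhd, Nfil3, Hlf, Dock5, Gadd45b, Nfkbiz, Il18r1, Capg, Daw1, Atp8b4, Adam19, Sox13, Cxcr5, Kcnn2, Myo6, Car11 and Stc2 were lost. With Y-signal arrays alone, which leaves Mst1KO replicates 1 and 2, 22 did. Of the genes named below these were Fos, Jun, Klf6, Ly6c1, Ly6c2, Jaml, L1cam, Emp1, Cpm, Gna15, Tm6sf1, Hsd11b1, Qpct, Csf1, Il4, Atp8a2, Eng, Ptprb, Pmepa1 and Izumo1r, and the calls of all others named below were lost with those arrays alone.

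**Figure D1:**
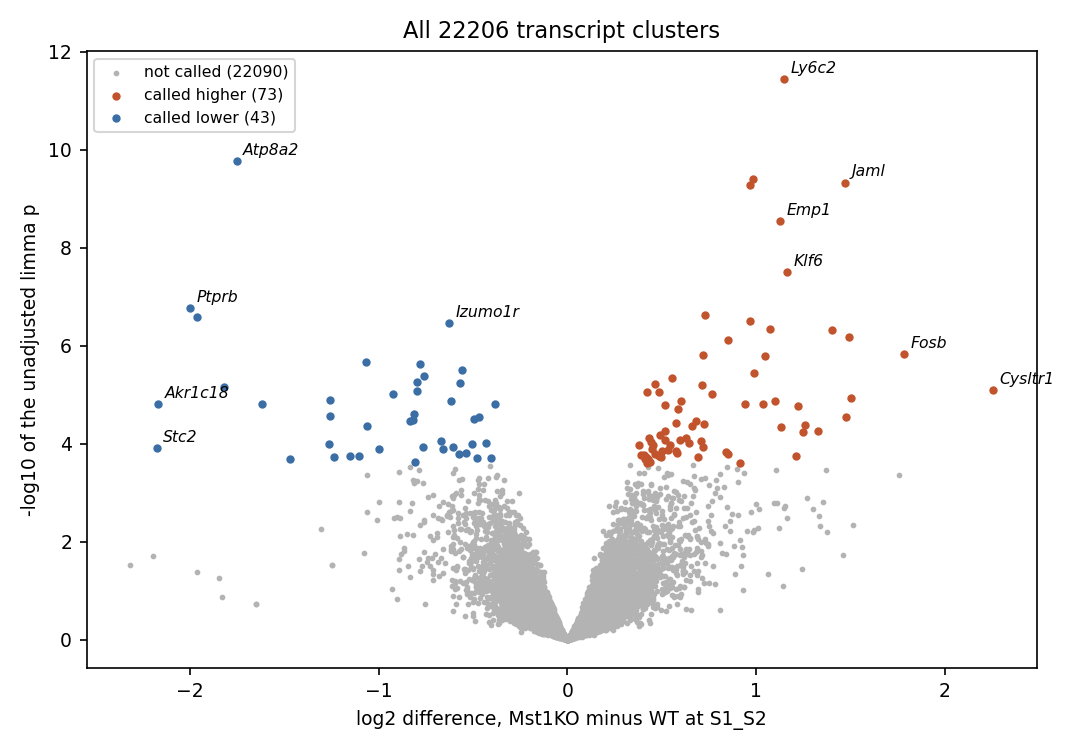
Log2 difference (x axis, Mst1KO minus WT at S1_S2) against the -log10 of the unadjusted limma p (y axis) for each of 22206 transcript clusters. Of the 116 called clusters 73 lie to the right of 0 and 43 to the left, with Ly6c2 and Atp8a2 at the top of each side.

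Immediate early genes, which cells switch on within minutes of a receptor signal or of stress, were among those that rose. Fos, Fosb and Jun, which encode subunits of the factor AP-1, rose together. The promoters of Fos and Fosb are shown for that reason. They are the 250 bases before the RefSeq start on the GRCm38.p6 build, with Fos at chr12:85473640-85473889 (plus strand) and Fosb at chr7:19310046-19310295 (minus strand), and capitals mark TGACG, searched on both strands, and TATAAA, searched on the gene's strand.
Fos: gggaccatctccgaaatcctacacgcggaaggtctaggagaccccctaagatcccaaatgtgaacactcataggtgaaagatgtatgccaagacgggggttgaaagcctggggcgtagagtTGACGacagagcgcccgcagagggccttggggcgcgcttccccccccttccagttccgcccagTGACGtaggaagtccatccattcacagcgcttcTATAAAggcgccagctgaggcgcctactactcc
Fosb: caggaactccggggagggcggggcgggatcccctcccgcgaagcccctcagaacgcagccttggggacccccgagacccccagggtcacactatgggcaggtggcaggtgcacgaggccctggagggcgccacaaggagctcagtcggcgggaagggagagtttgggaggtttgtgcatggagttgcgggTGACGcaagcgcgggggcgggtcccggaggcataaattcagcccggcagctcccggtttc
The 300 bases that also take in the first 50 after the start were searched on both strands for the cyclic AMP response element TGACGTCA, the AP-1 site TGANTCA and the CArG box bound by serum response factor. These letters were found in none of Fos, Fosb and Jun, and in 1.79%, 7.81% and 1.63% of all 32851 promoters. The shorter TGACG, which lies within TGACGTCA and was added after seeing the data, occurred in Fos and Fosb. It did not occur in Jun, whose promoter is not shown. TGACG occurred in 9 of 14 promoters of AP-1 genes (64.3%) and in 20.8% of all promoters. Of the other immediate early genes, most of which were not called, 21 of 32 promoters held it (65.6%). The CArG box occurred in 7 of those 32 (21.9%). Among 70 promoters of the named genes that rose, TGACG occurred in 14 (20%) and the CArG box in 1 (1.43%). A match is a description of the letters, not a binding site.

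Fosb read 9.84 to 11.48 (median 10.49) on the 6 WT arrays and 12.43, 12.1, 12.15 and 12.28 on Mst1KO replicates 1 to 4. Every Mst1KO array exceeded every WT array, and the rise was 1.79 ± 0.28 (limma adjusted p = 0.0019). Fos read 9 to 9.98 (median 9.56) in WT and 11.13, 10.95, 10.77 and 11 in Mst1KO, a rise of 1.40 ± 0.20 (adjusted p = 0.00074). Jun read 8.69 to 9.81 (median 9.35) in WT and 10.97, 10.74, 10.65 and 10.68 in Mst1KO, a rise of 1.49 ± 0.22 (adjusted p = 0.001). Each of the 3 spread more in WT (SDs of 0.6, 0.35 and 0.4) than in Mst1KO (0.15, 0.15 and 0.14). WT replicate 3 was the highest WT array for Fosb and Jun, but still below all Mst1KO arrays. Fos and Jun kept their call in all alternatives run, and Fosb kept it with each array left out in turn but not with the 7 first-run S1_S2 arrays (0.075).

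Other AP-1 genes did not move as one. Of 15 measured, 3 rose (20%) and 0 fell (limma), 7 and 1 at an unadjusted p below 0.05, which 1921 of all 22206 clusters reached (8.65%). The list median was 0.08, against -0.01 over all clusters. Atf3, a stress-induced partner of Jun, read 7.39 to 8.51 in WT and 8.99 to 9.55 in Mst1KO, a difference of 1.15 ± 0.33 that did not pass (adjusted p = 0.15). Jund read 10.19 to 10.57 in WT and 10.81 to 10.87 in Mst1KO, and Batf 10.29 to 10.44 and 10.5 to 10.86, neither called. With Fos, Fosb, Jun and Atf3 this made 6 of the 15 in which each Mst1KO array exceeded all WT arrays. That held for 1.5% of all clusters. Junb differed by 0.08 ± 0.07 and Fosl2 by -0.22 ± 0.10. Atf3, Jund, Batf, Junb and Fosl2 were chosen after their values were seen.

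Of 34 other immediate early genes 4 rose (11.8%) and 0 fell, with 9 and 7 at an unadjusted p below 0.05 and a median of 0.06. They were Klf6, Zfp36, Gadd45b and Nfil3, which is described with the clock genes. Klf6, a zinc-finger factor, read 10.19 to 11.16 (median 10.66) in WT and 11.84, 11.74, 11.79 and 11.95 in Mst1KO. It rose by 1.16 ± 0.14 (limma adjusted p = 1e-04; 0.051 with the 7 first-run S1_S2 arrays), without overlap. Zfp36, whose product tristetraprolin destabilises cytokine mRNAs, rose by 0.59 ± 0.11 (adjusted p = 0.0088). Gadd45b, a stress response gene, rose by 0.69 ± 0.16 (adjusted p = 0.039), a call lost without any of WT replicates 1 to 4 or Mst1KO replicates 2 to 4 (adjusted p from 0.057 to 0.18), within the first run (0.086) and without the run term (0.12). The receptor-signal genes did not join them. Egr1 differed by 0.13, Nr4a1 by 0.27, Egr2 by -0.40 and Egr3 by -0.24, and none of the 4, named after their values were seen, was called.

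Rhob, a small GTPase gene that also responds early to signals, read 7.53 to 8.68 (median 7.86) in WT and 9.32, 8.57, 9.12 and 9.25 in Mst1KO. Here the groups overlapped, through WT replicate 3 and Mst1KO replicate 2. The rise of 1.21 ± 0.27 (limma adjusted p = 0.038) was lost without any array other than WT replicate 3 and Mst1KO replicate 2 (adjusted p from 0.051 to 0.14) and with the first run alone (0.26). Cd69, an early activation gene whose product retains cells in the thymus by lowering the S1P receptor, read 9.41 to 10.36 in WT and 11.09 to 11.2 in Mst1KO. Its rise was 1.05 ± 0.16 (adjusted p = 0.0019). Pim1, a survival kinase gene, rose by 0.72 ± 0.11 (adjusted p = 0.0019).

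Heat shock genes, which respond to heat and handling, were measured beside these. Their mean level was 9.51 to 9.77 on the WT arrays, 10.27 on Mst1KO replicate 1, and 9.77, 9.78 and 9.98 on replicates 2 to 4. Of 10 measured genes 0 were called by limma, and 3 were higher at an unadjusted p below 0.05 (30%, against 8.65% of all clusters in either direction). Hspa1a, an inducible Hsp70, differed by 0.99 ± 0.32 (adjusted p = 0.25). It read 9.05 to 9.62 in WT and 9.65 to 11.2 in Mst1KO, and Dnajb1 read 11.28 to 11.66 and 11.72 to 12.33. In these 2 of the 10 each Mst1KO array exceeded all WT arrays, as in 1.5% of all clusters. Mst1KO replicate 1 was highest for heat shock genes and for Fosb, Fos and Jun. Replicates 2 to 4 also exceeded all WT arrays for Fosb, Fos and Jun. The part of the heat shock level in the AP-1 rise was not tested.

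**Figure D2:**
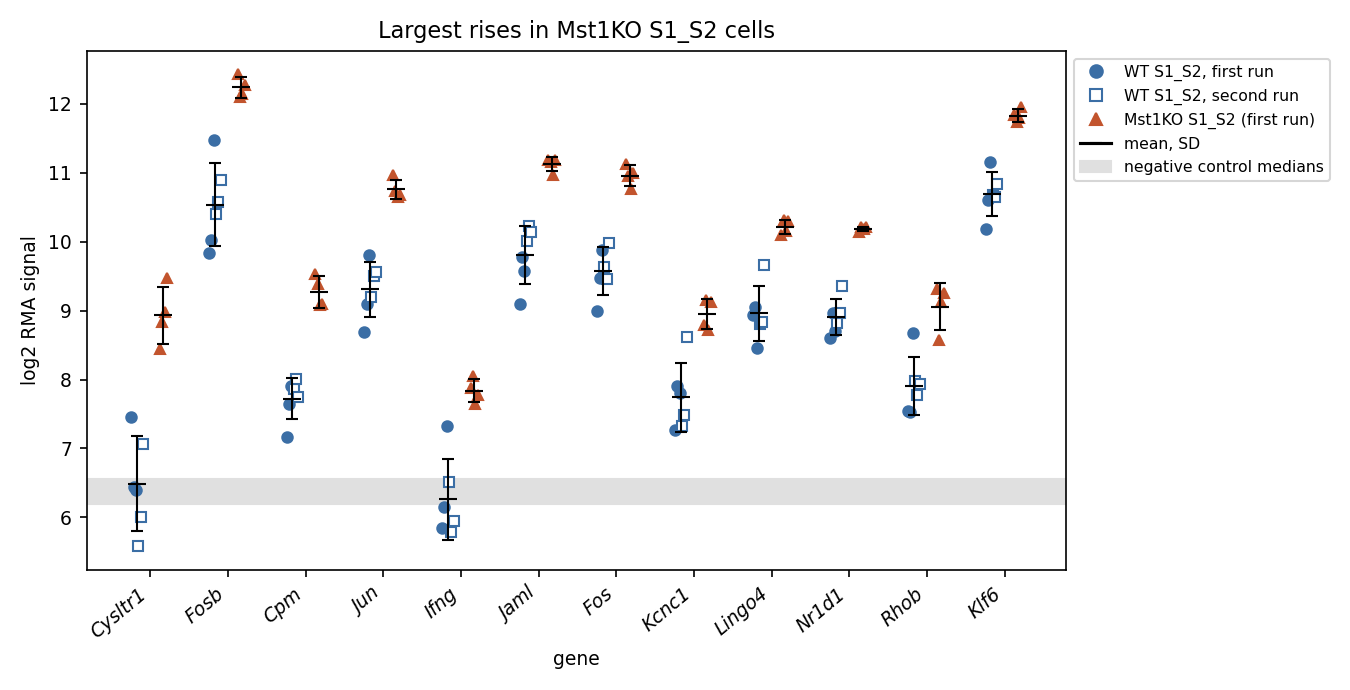
Log2 RMA signal (y axis) of the 12 genes with the largest rises (x axis) on each S1_S2 array, with bars for the mean and SD of each group and a grey band for the range of negative control medians. Mst1KO arrays (triangles) lie above all WT arrays for each gene except Rhob, and Cysltr1 and Ifng start near the band in WT.

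Ly6c2 had the smallest p of all clusters, and its close copy Ly6c1 on chromosome 15 rose with it. They encode the Ly6C surface proteins of memory-type T cells. The promoters (GRCm38.p6, minus strand, chr15:75048838-75049087 and chr15:75111972-75112221) are shown because the pair moved together, with capitals for bases that are unaligned or not identical between them.
Ly6c1: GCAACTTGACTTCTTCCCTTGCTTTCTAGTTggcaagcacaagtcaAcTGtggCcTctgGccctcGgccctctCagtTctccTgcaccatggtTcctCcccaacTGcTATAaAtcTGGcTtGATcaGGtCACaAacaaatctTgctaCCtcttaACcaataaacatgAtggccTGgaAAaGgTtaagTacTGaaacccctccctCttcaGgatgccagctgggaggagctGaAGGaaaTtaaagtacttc
Ly6c2: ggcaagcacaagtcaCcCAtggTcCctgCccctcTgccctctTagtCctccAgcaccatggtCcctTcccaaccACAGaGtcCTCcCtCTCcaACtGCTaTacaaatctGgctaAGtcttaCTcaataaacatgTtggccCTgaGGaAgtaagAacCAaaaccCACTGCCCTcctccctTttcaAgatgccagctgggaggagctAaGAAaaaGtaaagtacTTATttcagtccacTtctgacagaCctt
Over the 300 bases with the first 50 after the start, 208 of 266 aligned bases were identical (78.2%).

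Ly6c2 read 9.95 to 10.3 (median 10.2) in WT and 11.28, 11.41, 11.29 and 11.13 in Mst1KO, a rise of 1.15 ± 0.09 (limma adjusted p = 7.9e-08). Ly6c1 read 10.94 to 11.38 (median 11.1) in WT and 12.1, 12.1, 12.13 and 11.99 in Mst1KO, a rise of 0.97 ± 0.09 (adjusted p = 2.3e-06). The groups were separate for both, and both calls held in all alternatives run. Reads of such close copies may not be fully separate, as the specificity of the probes is unknown here. Of 14 measured Ly6 family genes these 2 rose (14.3%), 0 fell by limma, and the median was 0.01. At an unadjusted p below 0.05, 3 were higher and 1 lower.

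Jaml, an adhesion and costimulatory receptor, read 9.1 to 10.23 (median 9.9) in WT and 11.19, 11.16, 10.97 and 11.18 in Mst1KO, a rise of 1.47 ± 0.14 (limma adjusted p = 2.3e-06). Of 21 adhesion genes it was the 1 called (4.76%), and their median was 0.05. Among these genes 6 were higher and 1 lower at an unadjusted p below 0.05 (33.3%, against 8.65% of all clusters). In 5 of the 21 each Mst1KO array exceeded all WT arrays, against 1.5% of all clusters. L1cam, a neural-type adhesion molecule, rose by 0.99 ± 0.16 (adjusted p = 0.0035), and Emp1, a tetraspan membrane protein gene, by 1.13 ± 0.12 (adjusted p = 1.1e-05). Emp1 read 9.16 to 9.73 in WT and 10.55 to 10.81 in Mst1KO. Jaml, L1cam and Emp1 kept their call in all alternatives run.

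Cysltr1, the receptor for cysteinyl leukotrienes, had the largest rise of all. It read 5.58 to 7.46 (median 6.42) on the WT arrays, where 3 of 6 exceeded background, and 8.45, 8.84, 8.98 and 9.47 in Mst1KO. The difference was 2.26 ± 0.39 (limma adjusted p = 0.0058), or 4.78-fold, a size that depends on WT values near background. Cpm, a membrane carboxypeptidase gene, read 7.17 to 8.01 (median 7.8) in WT and 9.53, 9.38, 9.08 and 9.09 in Mst1KO. It rose by 1.5 ± 0.27 (adjusted p = 0.0069) and held in all alternatives run. Gna15, a G protein alpha subunit gene of blood cells, rose by 0.97 ± 0.14 (adjusted p = 0.00062) and held likewise, as did Tm6sf1, a multi-pass membrane protein gene (1.07 ± 0.15, adjusted p = 0.00074).

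Smaller rises were found in single genes, taken from no list. Tnfrsf25, the receptor of the costimulatory cytokine TL1A, read 10.28 to 10.57 in WT and 10.93 to 11.07 in Mst1KO, a rise of 0.56 ± 0.09 (limma adjusted p = 0.004). Atp2b1, a calcium pump of the plasma membrane, rose by 0.42 ± 0.07 (adjusted p = 0.0059). Prex1, which activates the GTPase Rac, rose by 0.49 ± 0.09 (adjusted p = 0.0058) and Arhgap26, a GTPase-activating protein gene, by 0.60 ± 0.11 (adjusted p = 0.0072). Within the first run Prex1 and Arhgap26 did not pass (adjusted p = 0.077 and 0.074). Without the run term Prex1 had an adjusted p of 0.052.

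Hsd11b1, which regenerates active glucocorticoid, read 9.03 to 9.29 in WT and 9.61 to 10.01 in Mst1KO and rose by 0.71 ± 0.12 (limma adjusted p = 0.0048). Qpct, a glutaminyl cyclase gene, rose by 0.73 ± 0.10 (adjusted p = 0.00057), and Ldhd, which oxidises D-lactate, by 1.04 ± 0.19 (adjusted p = 0.0076). Ppp1r3b, which targets protein phosphatase to glycogen, rose by 1.1 ± 0.20 (adjusted p = 0.0072).

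Kcnc1, a voltage-gated potassium channel gene, read 7.27 to 8.62 (median 7.64) in WT and 8.79, 9.15, 8.72 and 9.12 in Mst1KO, without overlap. Its rise of 1.26 ± 0.25 (limma adjusted p = 0.016) was lost without WT replicate 1 (0.072), Mst1KO replicate 2 (0.071) or replicate 4 (0.07). Lingo4, a leucine-rich repeat membrane protein gene, read 8.46 to 9.66 (median 8.88) in WT and 10.1, 10.31, 10.16 and 10.3 in Mst1KO. Its rise of 1.25 ± 0.25 (adjusted p = 0.02) was lost without WT replicates 1 or 3 or Mst1KO replicates 2, 3 or 4 (adjusted p from 0.05 to 0.073).

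Factors linked to the circadian clock rose in part. Nr1d1, the repressor Rev-erb alpha, read 8.61 to 9.36 (median 8.89) in WT and 10.14, 10.22, 10.19 and 10.21 in Mst1KO, a rise of 1.22 ± 0.23 (limma adjusted p = 0.008). Its 4 Mst1KO arrays had an SD of 0.03, against 0.26 in WT. Nfil3, a factor of innate lymphocytes and a repressor of clock output genes, rose by 0.94 ± 0.17 (adjusted p = 0.0076), although WT replicate 6 (9.25) overlapped Mst1KO (9.11 to 9.6). Hlf rose by 0.65 ± 0.14 (adjusted p = 0.029), a call lost without any of WT replicates 1 to 3 or Mst1KO replicates 1 to 4 (adjusted p from 0.054 to 0.13). On WT replicates 1 to 3 Hlf lay below background (6, 6.01 and 6.01), so the size of its rise depends on values near background. WT replicate 4 and Mst1KO replicate 1 both read 6.73. In a list of 17 clock genes, added after the values were seen, these 3 rose (17.6%) and 0 fell by limma, with 6 and 1 at an unadjusted p below 0.05. In 4 of the 17 each Mst1KO array exceeded all WT arrays, as in 1.5% of all clusters. None of the Cry and Per genes, Arntl and Clock was called by limma (Cry1, Clock and Arntl had an unadjusted p below 0.05). Cry1 read 8.64 to 9 in WT and 9.29 to 9.53 in Mst1KO (0.53, adjusted p = 0.065). Arntl read 10.13 to 10.41 and 10.44 to 10.7 (0.28, adjusted p = 0.435), also without overlap, and Clock differed by 0.36 (adjusted p = 0.116). Per1 differed by 0.01, Per2 by -0.06 and Cry2 by -0.25. Without the run term the adjusted p was 0.087 for Nfil3 and 0.053 for Hlf, and with the sex term it was 0.066 for Nr1d1, 0.067 for Nfil3 and 0.12 for Hlf. The labels give no time of day for the sorts.

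Cytokine genes moved both ways. Of 33 measured, 1 rose and 2 fell (9.09%), and the median was 0.03. At an unadjusted p below 0.05, 6 were higher and 5 lower (33.3%, against 8.65% of all clusters). Csf1, the macrophage growth factor M-CSF, read 10.28 to 11.79 (median 11.53) in WT and 9.13, 9.25, 9.85 and 8.99 in Mst1KO. The groups did not overlap, and the fall was 1.96 ± 0.27 on the log2 scale (limma adjusted p = 0.00057; 0.065 with the 7 first-run S1_S2 arrays). Il4, the type 2 cytokine of early iNKT cells, read 11.22 to 11.53 (median 11.38) in WT and 10.61, 10.52, 10.83 and 10.7 in Mst1KO, a difference of -0.78 ± 0.13 (adjusted p = 0.0025; 0.054 with those 7). Ifng, the type 1 cytokine, read 5.78 to 7.33 (median 6.05) in WT and 7.88, 8.05, 7.64 and 7.77 in Mst1KO. Only WT replicates 3 and 4 exceeded their background for Ifng, while all Mst1KO arrays did. Its rise of 1.48 ± 0.28 (adjusted p = 0.012) was lost without WT replicate 1 (0.061), without Mst1KO replicate 2 (0.057) and within the first run (0.063). Il18r1, a receptor subunit for interleukin-18, was the 1 called of 28 cytokine receptor genes (3.57%), with a rise of 0.46 ± 0.10 (adjusted p = 0.03). That call was lost without WT replicates 1 or 2 or any Mst1KO array (adjusted p from 0.062 to 0.1) and within the first run (0.2). Of the 28 receptor genes 8 were higher and 1 lower at an unadjusted p below 0.05 (32.1%, against 8.65% of all clusters). Each Mst1KO array exceeded all WT arrays in 4 (against 1.5% of all clusters) and lay below them all in 1 (against 1.08%).

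The strongest fall by p was that of Atp8a2, a flippase that moves phosphatidylserine to the inner leaflet of membranes. It read 8.7 to 9.99 (median 9.57) in WT and 8.02, 7.81, 8.02 and 8.09 in Mst1KO, a difference of -1.75 ± 0.16 (limma adjusted p = 1.9e-06) that held in all alternatives run. Of 16 flippase and scramblase genes it was the 1 that fell, and Atp8b4 rose (0.39 ± 0.09, adjusted p = 0.038). The call of Atp8b4 was lost without WT replicates 1, 2, 5 or 6 or Mst1KO replicates 1, 3 or 4 (adjusted p from 0.053 to 0.15) and within the first run (0.11). Of the 16 genes 2 were higher and 3 lower at an unadjusted p below 0.05 (31.2%, against 8.65% of all clusters).

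Eng, which encodes the TGF-beta co-receptor endoglin, read 8.6 to 9.54 (median 9) in WT and 6.85, 7.56, 8.05 and 7.27 in Mst1KO, a difference of -1.62 ± 0.30 (limma adjusted p = 0.0076) kept in all alternatives run. Cdh3, P-cadherin, read 7.74 to 9.77 (median 9.53) in WT and 7.27, 6.82, 7.83 and 6.96 in Mst1KO, with overlap only between WT replicate 3 and Mst1KO replicate 3. Its difference was -1.82 ± 0.31 (adjusted p = 0.0052; 0.21 with the 7 first-run S1_S2 arrays). Ptprb, a receptor tyrosine phosphatase, read 5.53 to 7.33 (median 7.1) in WT and 4.48, 4.86, 4.71 and 4.78 in Mst1KO. No Mst1KO array exceeded background, so the fall was at least 0.35 on the log2 scale (1.27-fold), with a fitted difference of -2.00 ± 0.27 (adjusted p = 0.00048; 0.071 with those 7). Pmepa1, which dampens TGF-beta signalling and is induced by it, differed by -0.57 ± 0.10 (adjusted p = 0.0047; 0.18 without the run term).

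Akr1c18, a steroid dehydrogenase that inactivates progesterone, read 8.7 to 11.3 (median 10.13) in WT and 7.83, 8.11, 7.97 and 7.24 in Mst1KO. WT spread was wide (SD 1.07), but no array overlapped, and the difference was -2.17 ± 0.40 (limma adjusted p = 0.0076; 0.1 with the 7 first-run S1_S2 arrays). Ociad2, a gene for an endosome and mitochondrial membrane protein, read 6.82 to 7.79 (median 7.12) in WT and 6.3, 6.35, 6.17 and 5.78 in Mst1KO, all 4 below background. It fell by at least 0.74 on the log2 scale (1.67-fold), with a fitted difference of -1.26 ± 0.23 (adjusted p = 0.0072). Cfap20dc, named for a domain of cilia-associated proteins, read 7.87 to 8.29 in WT and 6.76 to 7.09 in Mst1KO, a difference of -1.07 ± 0.17 (adjusted p = 0.0024).

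Stc2, a secreted glycoprotein gene, read 6.13 to 8.49 (median 8.1) in WT and 6.11, 5.03, 5.28 and 4.94 in Mst1KO. No Mst1KO array exceeded background, which makes the fall at least 1.31 on the log2 scale (2.47-fold; fitted -2.18 ± 0.47, limma adjusted p = 0.032). That call was lost without WT replicates 1 or 2 or Mst1KO replicates 2, 3 or 4 (adjusted p from 0.091 to 0.13) and within the first run (0.21). Car11, a carbonic anhydrase-related gene, read 6.01 to 8.9 (median 6.94) in WT and 6.08, 6.31, 6.27 and 6.43 in Mst1KO, where none exceeded background. Its fall of at least 0.82 on the log2 scale (1.76-fold; fitted -1.47 ± 0.33, adjusted p = 0.041) rested on WT arrays of which replicates 1 and 2 were highest (8.39 and 8.9). It was lost without any array except WT replicates 3 and 4 (adjusted p from 0.052 to 0.17) and without the run term (0.29).

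Of the remaining large falls, Myo6, a myosin that moves towards the minus end of actin, read 7.72 to 9.63 (median 9.08) in WT and 7.12, 7.57, 7.8 and 7.55 in Mst1KO. The difference of -1.26 ± 0.27 (limma adjusted p = 0.029) was lost without WT replicates 1 or 2 or Mst1KO replicates 1, 2 or 4 (adjusted p from 0.076 to 0.12) and within the first run (0.19). Akap6, an anchor of protein kinase A, read 8.68 to 10.33 (median 9.88) in WT and 8.2, 8.37, 8.97 and 7.96 in Mst1KO. Its difference of -1.26 ± 0.24 (adjusted p = 0.012) was lost without WT replicate 1 (0.054), Mst1KO replicate 1 (0.054) or Mst1KO replicate 4 (0.069), and within the first run (0.15). Kcnn2, a calcium-activated potassium channel gene, read 7.64 to 8.96 (median 8.42) in WT and 6.82, 7.03, 7.95 and 7.51 in Mst1KO. The difference of -1.23 ± 0.28 (adjusted p = 0.039) was lost without WT replicates 1, 2, 4 or 5 or Mst1KO replicates 1, 2 or 4 (adjusted p from 0.059 to 0.17), within the first run (0.053) and without the run term (0.06). In Myo6, Akap6 and Cdh3 WT replicate 3 was the lowest WT array and lay within the Mst1KO range.

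**Figure D3:**
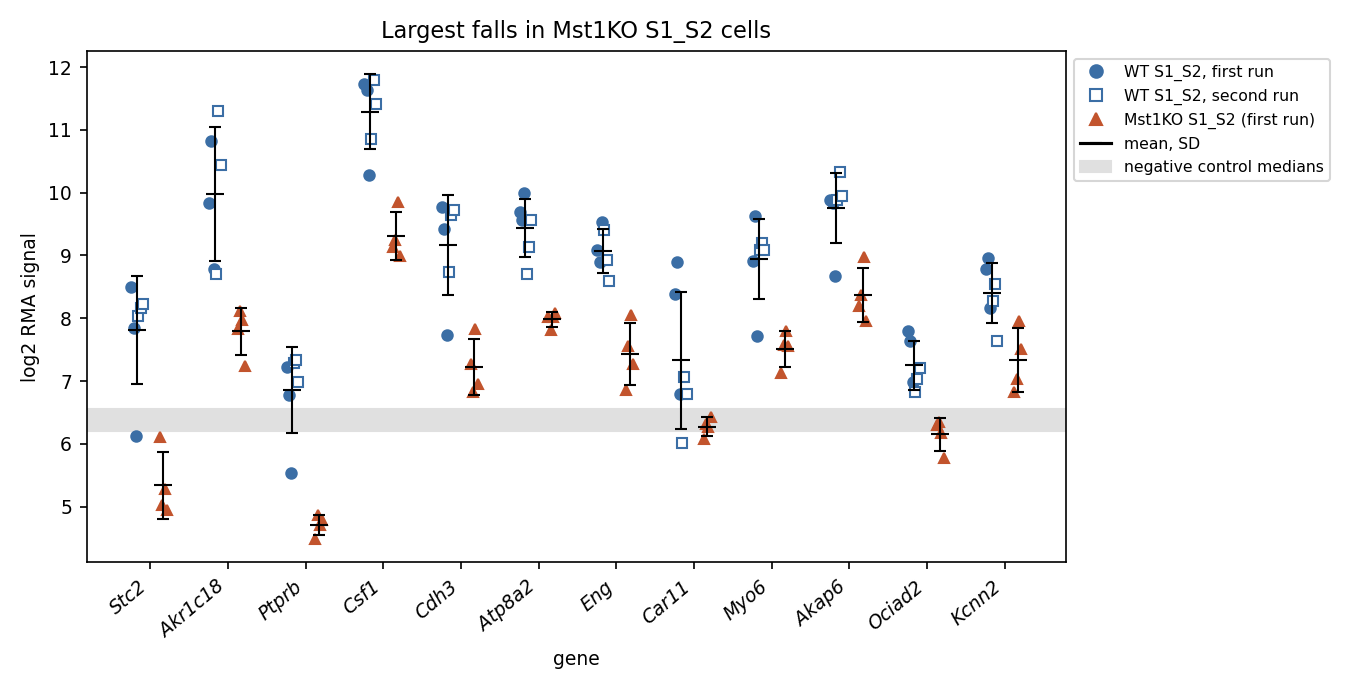
Log2 RMA signal (y axis) of the 12 genes with the largest falls (x axis) on each S1_S2 array, with bars for the mean and SD of each group and a grey band for the range of negative control medians. In Stc2, Ptprb, Car11 and Ociad2 the Mst1KO arrays (triangles) lie at or below the band, and WT replicate 3 (a filled first-run circle) sits low in Stc2, Ptprb, Csf1, Cdh3, Myo6 and Akap6.

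Smaller falls with tight groups included Izumo1r, which encodes the folate receptor family protein FR4. It read 12.91 to 13.11 in WT and 12.29 to 12.44 in Mst1KO, a difference of -0.63 ± 0.09 (limma adjusted p = 0.00063) that held in all alternatives run. Cst7, the protease inhibitor cystatin F, read 10.83 to 11.36 in WT and 10.64 to 10.7 in Mst1KO (-0.56 ± 0.09, adjusted p = 0.0031; 0.081 without the run term). Adam19, a membrane protease, differed by -0.62 ± 0.11 (adjusted p = 0.0072), and Sh3bp2, an adaptor of Syk and ZAP-70 family kinases, by -0.79 ± 0.13 (adjusted p = 0.0046). Smpdl3b, a lipid-modifying phosphodiesterase at the membrane, differed by -0.80 ± 0.14 (adjusted p = 0.0058).

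Few markers of the iNKT subsets were called, but most NKT17 markers read higher and most NKT2 markers lower in Mst1KO. Of 20 NKT17 markers 1 was called higher (5%), Il18r1, and 0 lower, but 19 of 20 had a difference above 0. Their median was 0.65, against -0.01 over all clusters, and 11 were higher at an unadjusted p below 0.05, with 0 lower (55%, against 8.65% of all clusters in either direction). In 8 of them each Mst1KO array exceeded all WT arrays, as in 1.5% of all clusters. The mean level of the list was 9.17, 9.04, 8.89, 9.18, 9.21 and 9.5 on WT replicates 1 to 6 and 9.78, 9.89, 9.71 and 9.85 on Mst1KO replicates 1 to 4. Within the first run the median was 0.84. Ccr6, a chemokine receptor of NKT17 cells, read 7.36 to 9.09 in WT and 9.98 to 10.31 in Mst1KO, a difference of 1.76 ± 0.43 (limma adjusted p = 0.0702), and Il1r1, an interleukin-1 receptor gene, by 1.36 ± 0.38 (adjusted p = 0.135). The cytokine gene Il17a differed by -0.04 ± 0.17. Ccr6, Il1r1 and Il17a were chosen after their values were seen.

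Of 13 NKT2 markers Il4 and Izumo1r fell (15.4%), 0 rose by limma, and 12 of 13 differences lay below 0, with a median of -0.21. At an unadjusted p below 0.05, 6 were lower and 0 higher (46.2%, against 8.65% of all clusters in either direction). In 4 of the 13 each Mst1KO array lay below all WT arrays, against 1.08% of all clusters. The mean level of the list was 11.09 to 11.34 in WT and 10.88 to 11.04 in Mst1KO. Of 20 NKT1 markers Ly6c2 and Ifng rose (10%) and 0 fell by limma (3 and 0 at an unadjusted p below 0.05), and the median was 0.03. WT replicate 3 had the highest NKT1 level (8.92, against 7.91 to 8.39 in the other WT arrays), above Mst1KO (8.32 to 8.64). Of 22 NK receptor genes 0 were called, with 3 higher and 2 lower at an unadjusted p below 0.05.

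**Figure D4:**
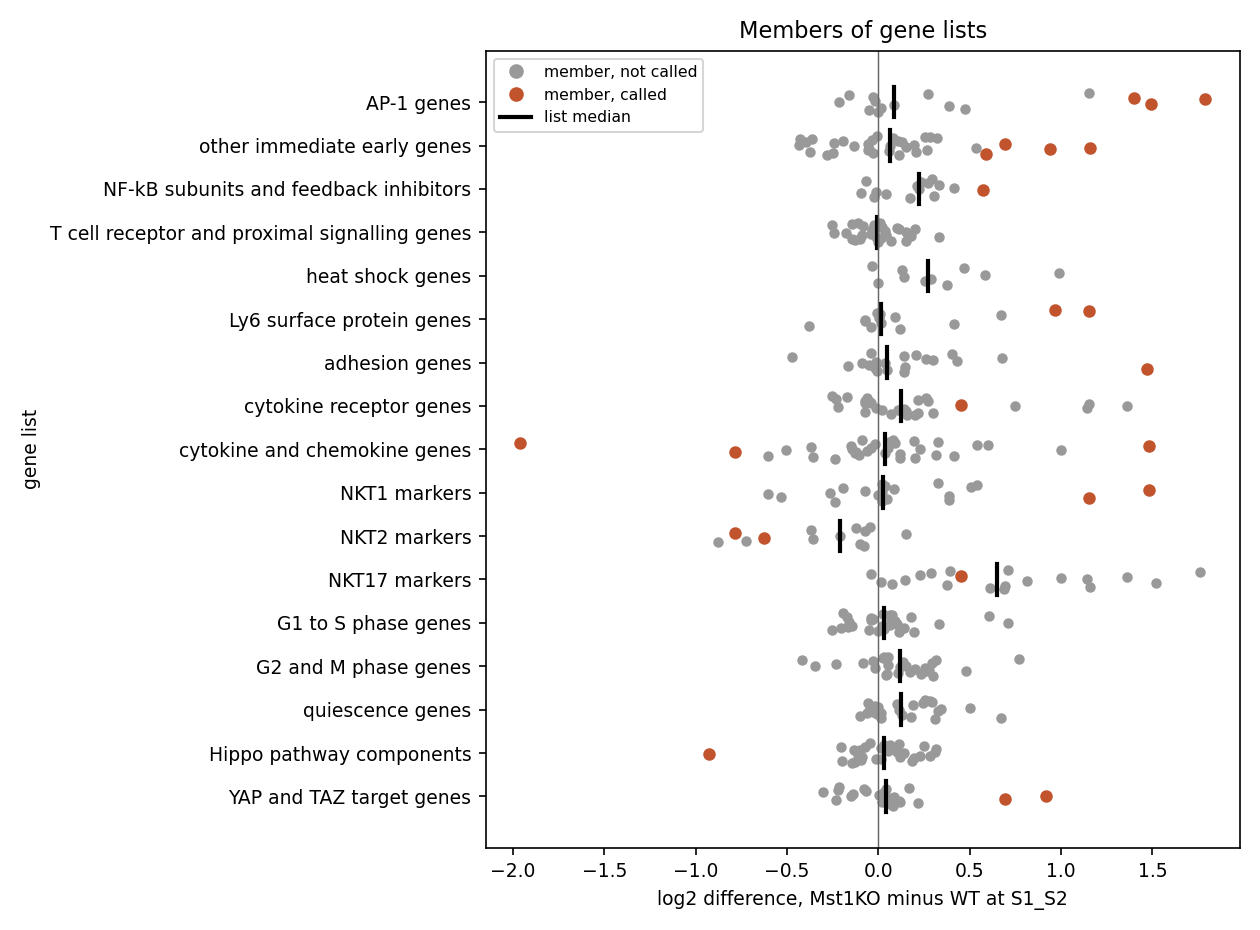
Log2 difference (x axis, Mst1KO minus WT at S1_S2) of each measured member of 17 gene lists (y axis), with called members in colour and a bar at each list's median. Most medians lie near 0, the NKT17 markers are shifted to a median of 0.65 with 1 call, and the AP-1 calls lie far from their list's median of 0.08.

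Genes of the Hippo pathway and of the cell cycle gave few calls. Of 31 Hippo components Stk4 was the 1 called (3.23%), and 0 were called higher by limma (3 at an unadjusted p below 0.05). The gene of the close relative Mst2, Stk3, was not analysed here, as the probe annotation lists no cluster under that symbol. Of 23 Yap and Taz target genes Gadd45b and Dock5 rose (8.7%), 0 fell, and the median was 0.04. Dock5, an activator of Rac, rose by 0.92 ± 0.21 (limma adjusted p = 0.048), a call lost without WT replicates 1, 2, 4 or 5 or any Mst1KO array (adjusted p from 0.059 to 0.2) and within the first run (0.15). Yap1 itself lay below background on all 10 arrays. Of 29 genes of G1 and S phase and 27 of G2 and M phase 0 were called by limma (2 and 1 at an unadjusted p below 0.05), with medians of 0.03 and 0.12, and Mki67, the proliferation marker, differed by 0.28 ± 0.15. Mki67 and Yap1 were chosen after their values were seen. Of 24 quiescence genes 0 were called, and the median was 0.12. At an unadjusted p below 0.05, 7 of them were higher and 0 lower (29.2%, against 8.65% of all clusters in either direction). In 4 of the 24 each Mst1KO array exceeded all WT arrays, against 1.5% of all clusters. Of 30 genes of T cell receptor signalling 0 were called (4 at an unadjusted p below 0.05), and the median was -0.01.

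Of 15 NF-kB genes 1 rose (6.67%), Nfkbiz, which encodes the inducible co-factor IkB zeta, by 0.57 ± 0.11 (limma adjusted p = 0.014). It was lost without WT replicate 1 (0.064) and Mst1KO replicates 2 (0.059) or 4 (0.08), and within the first run (0.073). At an unadjusted p below 0.05, 7 of the 15 were higher and 0 lower (46.7%, against 8.65% of all clusters). Of 19 egress and homing genes Cxcr5 was the 1 called (5.26%), a chemokine receptor of follicular homing. It fell by at least 0.46 on the log2 scale, as no Mst1KO array exceeded background (fitted -1.0 ± 0.22, adjusted p = 0.033). The call was lost without WT replicates 1 or 2 or Mst1KO replicates 1, 2 or 4 (adjusted p from 0.064 to 0.13) and within the first run (0.23). Of the 19, 6 were higher and 3 lower at an unadjusted p below 0.05 (47.4%, against 8.65% of all clusters). Each Mst1KO array exceeded all WT arrays in 3 (against 1.5% of all clusters) and lay below them all in 2 (against 1.08%).

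Markers of other cells that a sort could carry over were measured in 8 lists. For B cells, myeloid and dendritic cells, double-positive and CD8 thymocytes, thymic epithelium, erythroid cells and NK or innate lymphoid cells 0 of 56 entries were called by limma. At an unadjusted p below 0.05 there were 5, a level that 8.65% of all clusters reached. Of the 5, 3 were among 7 NK or innate lymphoid markers (42.9%, 2 higher and 1 lower). The other 2 were among 11 double-positive and CD8 markers (18.2%, both lower). Mean levels overlapped between the groups in each of these 6 lists, as with the B cell markers (6.56 to 6.74 in WT and 6.49 to 6.78 in Mst1KO). Of 6 regulatory T cell markers Capg, an actin-capping protein gene, was the 1 called (16.7%). It rose by 0.45 ± 0.10 (adjusted p = 0.033), a call lost without WT replicates 1 to 3 or any Mst1KO array (adjusted p from 0.052 to 0.13), within the first run (0.078) and without the run term (0.64). Of 6 gamma-delta T cell markers listed 2 were measured and moved in opposite directions. Cd163l1, a scavenger receptor gene, read 8.8 to 9.41 in WT and 9.8 to 10.07 in Mst1KO (0.77 ± 0.14, limma adjusted p = 0.0059), while the transcription factor gene Sox13 fell by 0.67 on the log2 scale (SE 0.14, adjusted p = 0.027). The call of Sox13 was lost without WT replicate 2 (0.1), Mst1KO replicate 2 (0.069) or replicate 3 (0.12), and within the first run (0.2). The gamma-delta receptor genes were not analysed here.

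The same comparison at S3, with other arrays but in the same fit, called 1415 clusters (6.37%). The comparisons at S3 and S1_S2 share the estimates of the run term and of the spread, so they are not fully separate. The labels do not say whether S1_S2 and S3 arrays came from the same mice. Of the 116 clusters called at S1_S2, 57 were among those 1415, each in the same direction. Fosb rose there by 1.44 ± 0.25, Jun by 1.14 ± 0.20 and Emp1 by 1.61 ± 0.11, while Atp8a2 differed by -2.15 ± 0.14 (limma adjusted p of 0.0015 or below for each). The difference between the stages was called for 35 clusters (0.158%), above 0 for 20 (0.0901%) and below 0 for 15 (0.0675%), and 11 of them were among the 116. In each of the 11 the effect was smaller at S3. Since the 11 were taken from genes called at S1_S2, that direction is partly fixed by the choice. The 35 became 61 without S1_S2 WT replicate 3, and 14 to 23 without S1_S2 WT replicates 2 or 5, any S1_S2 Mst1KO array, S3 WT replicate 1 or S3 Mst1KO replicates 2 to 5. All 11 kept the call, and the 35 became 53, with S1_S2 and S3 arrays paired by title number.

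Ly6c1 and Ly6c2 were the clearest case. Ly6c2 rose from 10.17 to 11.28 at S1_S2, while at S3 its means were 12.27 ± 0.12 (SD, n = 7) in WT and 12.51 ± 0.07 (n = 5) in Mst1KO. Its effects differed by -0.87 ± 0.11 (limma adjusted p = 0.00089) and those of Ly6c1 by -0.81 ± 0.12 (adjusted p = 0.0055), and both held in all alternatives run, each of 22 arrays left out included. The WT level at S3 thus lay above the Mst1KO level at S1_S2 for both. Qpct, which rose at S1_S2, had means of 9.26 and 9.22 at S3 (difference of effects -0.78 ± 0.13, adjusted p = 0.0059; 0.14 in the first run). Cfap20dc and Ptprb, which fell at S1_S2, exceeded background on none of the 12 S3 arrays, so no effect could be measured there and their differences of 1.33 and 2.12 say only that. Akr1c18 and Kcnn2 were likewise below background on all 12 S3 arrays. The other 6, Ppp1r3b, Prex1, Daw1, Cst7, Smpdl3b and Eng, lost the call in some alternatives. Daw1 too exceeded background on none of the 12 S3 arrays.

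**Figure D5:**
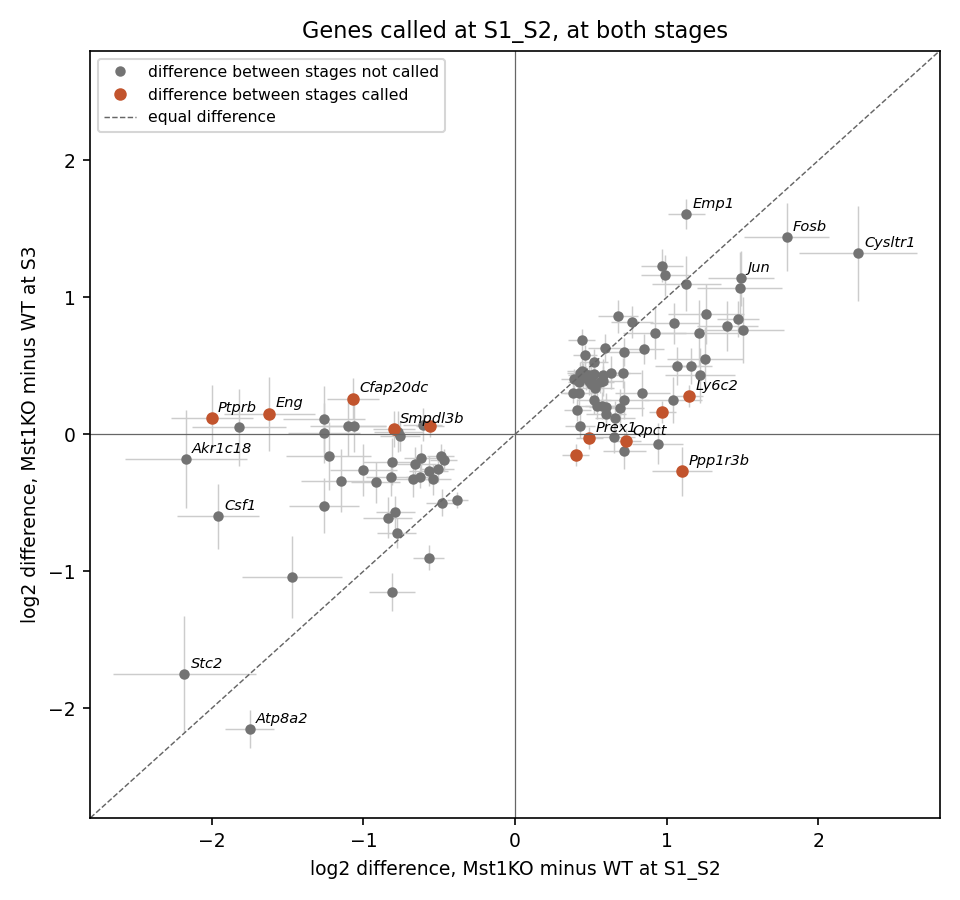
Log2 difference Mst1KO minus WT at S1_S2 (x axis) and at S3 (y axis) for the 109 named genes called at S1_S2, with bars for standard errors and a dashed line of equal difference. Genes whose effects differed between the stages are in colour, and Ly6c2, Ptprb and Cfap20dc lie near 0 on the y axis.

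The 2 dKOMst arrays of S1_S2 cells fall in the second run, and their WT arrays are among the 6 used above, so values are only set side by side. Klf6 read 11.97 and 11.96 in dKOMst, against 10.65 to 10.84 in second-run WT and 11.74 to 11.95 in Mst1KO. Ly6c2 read 11.73 and 11.61 (10.25 to 10.3 in second-run WT), and Cd69 11.12 and 11.06 (9.41 to 10.18). Jun read 10.28 and 10.52 (9.2 to 9.56). These 4 read above WT in both genotypes. Fosb read 10.58 and 10.95 in dKOMst, against 10.4 to 10.9, and Fos 9.44 and 9.92, against 9.46 to 9.98. Cysltr1 read 5.26 and 6.47, against 5.58 to 7.07. For Fosb, Fos and Cysltr1 at least 1 dKOMst array lay within the second-run WT range, and no Mst1KO array did, but the genotypes lie in different runs and their difference was not tested. Among the falls Csf1 read 9.06 and 8.84 (10.86 to 11.79 in second-run WT) and Atp8a2 7.33 and 7.43 (8.7 to 9.56), below WT in both genotypes. These 9 genes were chosen after their values were seen.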

How the data were processed

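Gene expression in sorted thymic iNKT cells was measured on Clariom S mouse arrays, and 10 arrays of the S1_S2 stage were compared. The deposited values are log2 signals for which the submitters' processing notes name RMA and Affymetrix Expression Console 1.1, and were used as deposited. Of 28846 items 6640 controls were left out. Of the 22206 transcript clusters 19572 carried 1 gene symbol in the platform annotation, 2634 carried none and 0 carried several. A linear model was fitted with limma 3.58.1 in R 4.3.3 to all 25 arrays, with 6 group means and the run of title numbers as an additive term (18 residual degrees of freedom). The run was read from the numbers and is not labelled as a batch. P-values were Benjamini-Hochberg adjusted over all 22206 clusters, and a cluster was called below 0.05 with no minimum fold. All adjusted p-values in the text come from limma.

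A level is compared with the median negative control of its array. Where no array of a group exceeded it, the fold is given as a bound against that median, computed from normalized means. The 12 largest named rises and 12 largest named falls are described with all values, together with Stk4, the sort genes and members of 38 gene lists. Members and lists were chosen with earlier results of these data known, and 1 further list was added after the values were seen. No p was adjusted over a list. On simulated data with 50 changed clusters at each size, 62%, 92%, 96% and 100% were called at log2 changes of 0.5, 1, 1.5 and 2, with 18 unchanged clusters called. Alternatives changed the run term, normalization, variance model, filter, fold minimum, sex term and the arrays used. Promoter sequences came from RefSeq (GRCm38.p6), and no probe positions were used. The S3 arrays of WT and Mst1KO and the S1_S2 arrays of dKOMst were used as stated in the text, and the 1 dKOMst array of S3 entered the model only.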

Additional observations from a re-analysis of the deposited data

Results flagged for a closer look

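The effect of Mst1 loss differed between the stages (S3 minus S1_S2, limma with adjusted p below 0.05) for 11 named genes that were called at S1_S2. On the log2 scale the difference was -0.87 for Ly6c2 and -0.81 for Ly6c1, both of which held in all alternatives run. It was -1.37 for Ppp1r3b, -0.78 for Qpct, -0.51 for Prex1 and -0.56 for Daw1, all higher in Mst1KO at S1_S2. It was 0.62 for Cst7, 0.84 for Smpdl3b, 1.77 for Eng, 1.33 for Cfap20dc and 2.12 for Ptprb, all lower in Mst1KO at S1_S2. Cfap20dc, Ptprb and Daw1 exceeded the median negative control on none of the S3 arrays, so their S3 effect could not be measured. Daw1 was also close to the limit at S1_S2 (limma adjusted p = 0.038) and exceeded background on fewer than 4 of the 10 arrays. Its S1_S2 call was lost without WT replicates 1, 3, 5 or 6 or Mst1KO replicates 1 to 3 (adjusted p from 0.052 to 0.15). Within the first run it was lost too (0.24).

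Some values stood far from the rest of their group. WT replicate 3 was the low array for Ptprb (5.53, others 6.78 to 7.33), Stc2 (6.13, others 7.84 to 8.49) and Akap6 (8.68, others 9.84 to 10.33). WT replicate 2 was low for Cd163l1 (8.8, others 9.2 to 9.41). Mst1KO replicate 3 was high for Smpdl3b (8.35, others 8.02 to 8.05) and low for Jaml (10.97, others 11.16 to 11.19), and Mst1KO replicate 2 was high for Arhgap26 (11.22, others 11.03 to 11.05). The rule uses Dixon's critical value at the 95% level, so chance flags about 1 in 20 groups.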

How the results depend on the processing

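All 109 named genes called at S1_S2 kept their direction in all alternatives run, and 13 kept their call in all of them. The 116 calls (73 higher, 43 lower) became 64 (42 and 22) with first-run arrays of 4 groups, 48 (39 and 9) with the 7 first-run S1_S2 arrays, and 56 (43 and 13) with the 10 arrays alone. They became 69 with a sex term (38 higher), 23 (16 and 7) with Y-signal arrays alone, and 76 with a minimum of 1.5-fold. The first-run, 10-array and Y-signal fits use fewer arrays. For the sex term the cause was not tested. Leaving out each array in turn gave 66 to 174 calls, 37 to 92 higher and 23 to 82 lower. The 35 calls for the difference between stages became 17 without the run term and 10 in the first run, and 14 to 61 with each array left out, an alternative chosen after seeing the data. The share called higher, 62.9%, was 55.7% after a further quantile normalization, 55.1% with the sex term, 76.8% with the 10 arrays alone and 81.2% with the 7 first-run S1_S2 arrays. Over the 156 genes followed and their alternatives, 748 values lost a call, 12 gained one and 2664 did neither. List medians moved beyond the spread between replicates in 59 cases and not in 799. The labels give no shared replicate numbers, but within a run the title numbers of S1_S2 and S3 arrays run in parallel, and the 11 pairs this makes match in genotype and Y signal. Deviations from group means correlated at r of -0.112 to 0.171 (median 0.03) within these pairs. Between other S1_S2 and S3 arrays of a run r was -0.19 to 0.158 (median -0.027). The pairs of Mst1KO replicates 1 and 2 had r of 0.171 and 0.17. With 11 pairs and overlapping ranges, these values cannot settle whether the arrays were paired. With the pairs as a random replicate block, chosen after seeing the data, 113 clusters were called at S1_S2 (all among the 116), 53 for the difference between stages, and 57 of the 116 at S3 in the same direction. Signal over background limits what can be seen, as 28.2% of clusters exceeded the median negative control on none of the 10 arrays.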
